A study of Mus musculus with 4 samples.

Results

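The genes described here are 9 receptors through which blood cells receive growth, survival and alarm signals: Kit, Flt3, Csf1r, Csf3r, Csf2rb, Il7r, Il6ra, Il1rl1 and Ifngr1. They were taken by symbol from a fixed list, and all 9 were found once among the 27998 genes of each of the 4 single-cell libraries and had at least 1 UMI (a counted molecule) in every library. Cells were sorted as endothelium: lineage markers were absent, and CD31, VE-cadherin and Endomucin were present. Sca-1 then set the gate, which the labels call H vessel for Sca-1-positive cells (type H gate below) and sinusoidal for Sca-1-negative cells. One library of each gate was labelled knockout, from CDH5-CreER mice of genotype ID1-/- ID3-/-, and the other control, from CDH5-CreER mice of genotype ID1+/+ ID3+/-, which the titles call WT. All 4 groups received intraperitoneal tamoxifen on 5 consecutive days, and the Cre is driven by an endothelial promoter. How many mice a library holds is not stated in the labels used here. With 1 library a group there is no replicate check and no test, and every interval printed is an exact 95% interval that covers counting error only.

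Cytokine receptors differ in how they pass a signal on. Kit, Flt3 and Csf1r are receptor tyrosine kinases that dimerise on their ligands and phosphorylate themselves. Csf3r, Csf2rb, Il7r and Il6ra are class I cytokine receptors and Ifngr1 is a class II receptor. These receptors lack a kinase of their own and work through JAK kinases and STAT factors, Il6ra by way of its partner gp130. Il1rl1 belongs to the interleukin-1 receptor family and signals through the adaptor MyD88. In the marrow, Kit marks stem cells and early progenitors, and Flt3 marks multipotent progenitors. Csf3r and Csf1r serve the neutrophil and monocyte lines, and Il7r serves lymphoid cells. A shared chain such as Csf2rb completes several receptors whose ligand-binding chains are separate genes.

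The stretches just before the start sites are shown for 4 members, because Kit, Flt3 and Csf3r are followed below through the progenitor-like clusters and Il6ra differed between the labels in monocyte-like cells. Each is the 250 bases before a start site, 5′ to 3′ on the strand of the gene, from RefSeq on GRCm38.p6. The capitals mark matches, on either strand, of GAGGAA for ETS factors of the PU.1 type, of AGATAA for GATA factors, of TTGCGC for the C/EBP core and of TGTGGT for RUNX factors; the motifs do not overlap one another here.
Kit promoter, chr5:75574737-75574986, plus strand: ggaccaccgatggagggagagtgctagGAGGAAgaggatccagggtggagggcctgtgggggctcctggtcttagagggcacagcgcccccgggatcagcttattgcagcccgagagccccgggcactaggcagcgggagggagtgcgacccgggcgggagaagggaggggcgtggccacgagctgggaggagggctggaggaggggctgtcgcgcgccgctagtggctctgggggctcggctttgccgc
Flt3 promoter, chr5:147400490-147400739, minus strand: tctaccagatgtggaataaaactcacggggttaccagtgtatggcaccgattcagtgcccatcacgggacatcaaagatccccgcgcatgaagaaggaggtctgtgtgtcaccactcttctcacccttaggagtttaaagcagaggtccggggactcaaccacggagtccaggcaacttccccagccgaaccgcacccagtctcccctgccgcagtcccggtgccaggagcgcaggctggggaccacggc
Csf3r promoter, chr4:126024409-126024658, plus strand: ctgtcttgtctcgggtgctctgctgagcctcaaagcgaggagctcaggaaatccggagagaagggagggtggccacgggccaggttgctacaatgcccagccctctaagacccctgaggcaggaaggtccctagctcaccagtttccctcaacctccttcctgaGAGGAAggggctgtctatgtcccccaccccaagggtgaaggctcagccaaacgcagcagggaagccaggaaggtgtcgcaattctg
Il6ra promoter, chr3:89913197-89913446, minus strand: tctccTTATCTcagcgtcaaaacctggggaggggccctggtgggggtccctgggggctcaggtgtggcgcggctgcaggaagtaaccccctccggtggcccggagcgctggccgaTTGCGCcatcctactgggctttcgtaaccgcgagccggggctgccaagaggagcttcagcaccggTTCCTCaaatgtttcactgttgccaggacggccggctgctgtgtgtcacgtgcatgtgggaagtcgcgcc
The Kit stretch and the Csf3r stretch hold 1 ETS match each, the Il6ra stretch holds 1 match each for ETS, GATA and C/EBP, and the Flt3 stretch holds none of the 4 motifs. Among 32851 mouse promoters of this length, 23.3% held the ETS letters, 9.99% the GATA letters, 5.34% the C/EBP letters and 14.1% the RUNX letters. The RefSeq table matched 7 of the 9 members with 9 start sites; Csf1r and Csf2rb had no entry.

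Nearly all cells read as blood cells. Of 3567 cells kept, 3432 (96.2%) had UMIs of at least 2 of 8 blood cell genes. Only 1 (0.0280%) had UMIs of at least 2 of 6 endothelial genes (Cdh5, Kdr, Stab2, Flt4, Plvap and Ptprb). Of these, Cdh5 and Kdr had 45 and 35 UMIs in all. That share depends on the genes chosen. Emcn and Pecam1, not among the 6, were read in 21.2% and 20.8% of type H cells labelled knockout. In those labelled control they were read in 24.1% and 23.0%. Endothelial was the second-best marker class of the progenitor-like clusters. The libraries held 1857, 806, 553 and 351 cells (type H labelled knockout, type H labelled control, sinusoidal labelled knockout and sinusoidal labelled control, the order kept in lists of 4 values) with medians of 5597, 6420, 15428 and 6142 UMIs a cell. Id3, 1 of the deleted genes, went against the labels, at 84.9 CPM (UMIs scaled to a common total per library or cell group) in the type H library labelled knockout against 33.0 in that labelled control, and 84.8 against 54.7 in the sinusoidal libraries; Id1 had 2.99 against 4.08 and 26.3 against 26.1. Since 3′ counts may lie outside the deleted part, which the sources used here do not give, the libraries are called by their labels only. Clusters were made without the 9 members and named from marker genes: 78.5% and 73.8% of the type H cells were progenitor-like in the libraries labelled knockout and control, while the sinusoidal libraries held 64.2% and 27.4% granulocyte precursor-like cells and 21.7% and 48.2% monocyte-like cells. Each library holds cells of both sexes: 965, 423, 314 and 163 cells had UMIs of Y-linked genes and none of Xist, and 142, 170, 83 and 62 had Xist alone, so the sexes stand in unequal parts between the labels. Plasma cell-like cells (a median of 7326 UMIs a cell), which should lack most of these receptors, gauge free RNA below.

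Kit, the receptor for stem cell factor, was the receptor of the type H gate progenitors. At the level of whole libraries it had 102 (96.4–108), 86.9 (79.4–94.95), 29.3 (25.7–33.2) and 22.0 (17.2–27.8) CPM. Both type H libraries lay far above both sinusoidal ones, and 72.5% of all Kit UMIs came from progenitor-like cells. Pooled over libraries, clusters 5, 0 and 2 (led by Trim47, by Notch2 and Hlf, and by Sox4 and Cd34) had 133, 131 and 130.3 CPM, followed by cluster 1 (Nkx2-3) with 111, cluster 3 (Cldn5) with 99.97, the unnamed cycling cluster 7 (Pf4, Ppbp) with 95.9 and cluster 10 (Iigp1, Ifit1) with 81.6. Neighbours in that order had overlapping intervals, whereas the next cluster, the Prg2 and Mpo granulocyte precursor-like cluster 9, stood apart at 45.0 (37.8–53.1) against 81.6 (62.7–104) in cluster 10. Within the granulocyte precursor-like cells Kit also stood in steps, with 45.0 in cluster 9, 27.7 in the Elane cluster 6 and 13.6 in the Ngp and Camp cluster 11, and monocyte-like cells had 1.66. With every cell thinned to 2000 UMIs, 20.5% of progenitor-like cells had a Kit UMI and 2.17% of plasma cell-like cells did.

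Flt3, the receptor for FLT3 ligand and a mark of multipotent progenitors and of dendritic cell development, was not spread over the progenitors like Kit. Whole libraries had 59.8 (55.3–64.5), 56.1 (50.04–62.6), 16.4 (13.8–19.4) and 18.9 (14.4–24.3) CPM, so that the type H libraries stood above the sinusoidal ones while the labels overlapped within each gate. Its level was highest in the Siglech dendritic cell-like cluster 13 with 150.4 (111–199) and in progenitor-like cluster 2 with 142 (129–155), whose intervals overlapped, then in cluster 7 with 111 (98.7–125). The other progenitor-like clusters had 39.9 (cluster 1), 38.5 (cluster 0), 29.8 (cluster 10), 11.9 (cluster 5) and 5.32 (cluster 3), so clusters 5 and 3, which were among the Kit-containing cells, were near the 8.37 of plasma cell-like cells. Flt3 was also read in cluster 9 with 30.7 and in the Fn1 and Lyz2 monocyte-like cluster 8 with 24.0, but there was no UMI in the Elane cluster 6. The 55.1 of T cell-like cluster 14 rested on 12 UMIs in 2 cells, 11 of them in 1 cell. At 2000 UMIs a cell, 29.9% of dendritic cell-like, 9.74% of progenitor-like and 1.09% of plasma cell-like cells had a Flt3 UMI.

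Csf1r, the receptor for macrophage colony-stimulating factor and interleukin-34, belonged to the monocyte-like cells of the sinusoidal gate. Whole libraries had 2.63 (1.76–3.78), 0.887 (0.288–2.07), 35.1 (31.2–39.4) and 96.6 (86.1–108) CPM. The sinusoidal libraries did not overlap with the type H ones or with each other, and the one labelled control was the highest. Monocyte-like clusters stood in steps without overlap, with 818 (672–986) in the Ear2 and Fcgr4 cluster 15, 253 (223–285) in cluster 8 and 73.3 (59.0–90.2) in the Chil3 and F13a1 cluster 12, which held cycling genes. Granulocyte precursor-like cluster 9 had 39.5 (32.8–47.1) and cluster 6 had 9.50, while 2061 progenitor-like cells together gave 3 UMIs (0.254 CPM), under the 1.40 of plasma cell-like cells. At 2000 UMIs a cell, 86.0% of cluster 15 had a Csf1r UMI and no plasma cell-like cell did. The gene lies on chromosome 18 (61100598 to 61132149, plus strand, GRCm38).

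Csf3r, the receptor for granulocyte colony-stimulating factor, was read at similar levels in progenitors and in myeloid cells. Whole libraries had 30.03 (26.9–33.4), 33.0 (28.4–38.1), 37.4 (33.4–41.8) and 45.9 (38.8–54.0) CPM, a narrow range in which neighbouring libraries overlapped. By class, monocyte-like cells had 47.4 (39.1–56.9), granulocyte precursor-like cells 42.6 (38.1–47.4), progenitor-like cells 36.5 (33.2–40.1) and the unnamed cluster 34.0, each overlapping with the next, against 1.86 in plasma cell-like cells. Within the progenitors the level was uneven: cluster 2, the Flt3-rich one, had 65.3 (56.7–74.9) and the other progenitor-like clusters 21.8 to 31.1. Cluster 15 had 89.2 (46.1–156), cluster 8 had 73.8 (58.2–92.2), cluster 11 had 60.7 (47.1–77.1) and cluster 6 had 49.2 (42.2–57.0), and each overlapped with its neighbour in this order.

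Csf2rb, the signalling chain shared by the receptors for interleukin-3, interleukin-5 and GM-CSF, was highest in basophil- and mast cell-like cells. Whole libraries had 14.6 (12.4–17.0), 13.8 (10.9–17.3), 30.8 (27.1–34.8) and 41.8 (35.0–49.6) CPM, with no overlap between gates or between the sinusoidal labels. Cluster 19, 22 cells led by Osm, Ccl3 and Il6 and named basophil- and mast cell-like, had 602 (438–809), and 68.2% of its cells had a UMI at 2000 UMIs a cell. It was followed by the dendritic cell-like cluster 13 with 110 (76.4–152), the Mcpt8 cluster 18 with 104 (70.5–149), cluster 15 with 74.4, B lymphoid-like cells with 63.8, cluster 8 with 62.3 and cluster 12 with 53.0. Progenitor-like cells had 9.30, within the interval of erythroid-like cells (3.41, 0.0862–18.97), so their level is not told apart from background. Plasma cell-like cells had 27.9, above the 14.6 and 13.8 of the type H libraries. They also held the interleukin-5 chain Il5ra (17.7 against 0.423 in progenitor-like cells), so they are no clean gauge of free RNA for Csf2rb. The ligand-binding partners lay partly elsewhere: Csf2ra, the GM-CSF chain, had 220.3 in monocyte-like, 79.8 in granulocyte precursor-like and 39.1 in progenitor-like cells, and Il3ra had 189 in basophil- and mast cell-like cells. Csf2rb has a near copy, Csf2rb2, on the opposite strand of chromosome 15 (78282507 to 78305721, against 78325752 to 78353847 for Csf2rb, GRCm38). Of the windows as long as a 57-base read, 15.7% of a Csf2rb transcript also occur in Csf2rb2, but none of the last 500 bases does; reads are taken near the 3′ end, yet a split of reads between the copies was not tested. Csf2rb2 had 3.72, 5.85, 3.498 and 6.60 CPM in the 4 libraries.

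Il7r, the chain for interleukin-7 and TSLP, was found mostly in T cell-like cluster 14 and in dendritic cell-like cells. B lymphoid-like cells had 1 UMI. In cluster 14, 8 T and NK marker genes were raised, and 5 innate lymphoid ones. Whole libraries had 4.26 (3.13–5.67), 6.21 (4.32–8.63), 0.965 (0.417–1.90) and 1.26 (0.343–3.22) CPM, from 47, 35, 8 and 4 UMIs, so the labels overlapped within each gate. T cell-like cluster 14 had 147 (101–207), dendritic cell-like cluster 13 had 113 (79.0–156) and cluster 19 had 95.8 (38.5–197), all overlapping. Progenitor-like cells had 4 UMIs together (0.338 CPM) and monocyte-like cells none, against 2.79 CPM in plasma cell-like cells. Il2rg, the common gamma chain that pairs with Il7r, reached 395 in the T and NK class, 135 in progenitor-like and 103 in dendritic cell-like cells, so in progenitor-like cells the partner was read without Il7r.

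Il6ra, which binds interleukin-6 and signals through gp130 (Il6st), was a monocyte-like receptor here. Whole libraries had 13.9 (11.8–16.3), 14.9 (11.9–18.4), 20.4 (17.4–23.7) and 48.1 (40.8–56.4) CPM, with the sinusoidal library labelled control above the other 3. Cluster 15 had 141 (85.1–221) and cluster 8 had 127 (107–151), which overlapped, and cluster 12 had 61.9 (48.8–77.5), which did not reach them. Progenitor-like cells with 13.02 were at the level of plasma cell-like cells with 15.3, but plasma cells are known to respond to interleukin-6 and are no clean gauge here; erythroid-like cells had no Il6ra UMI, with an exact interval up to 12.6. Whether the progenitor-like level is more than background is not read from these values. Il6st had 34.5 in monocyte-like and 13.3 in progenitor-like cells.

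Il1rl1, the interleukin-33 receptor ST2, was nearly absent at this depth, with 6, 3, 12 and 5 UMIs. Of the 26 UMIs, 16 were in the Mcpt8 cluster 18 (55.8 CPM, 31.9–90.5) and 5 in 2 cells of T cell-like cluster 14 (23.0, 7.45–53.6), whose intervals overlap. Basophils, mast cells and some T cells are known to carry this receptor.

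Ifngr1, the ligand-binding chain of the interferon-γ receptor, was read in nearly every class and most in monocyte-like cells. Whole libraries had 92.6 (87.0–98.5), 100 (91.9–109), 277 (266–289) and 278 (260–297) CPM, so the gates stood apart and the labels did not. Cluster 15 had 692 (558–847), the NK cell-like cluster 20 had 536 (386–724), cluster 8 had 440 (400–482) and cluster 6 had 413 (391.8–434), each overlapping with its neighbour, and cluster 12 with 244 (218–274) lay below them. The progenitor-like clusters had 84.0 to 120.4, above the 23.7 of plasma cell-like and the 10.2 of erythroid-like cells. The second chain, Ifngr2, followed a different order, with 159 in monocyte-like, 44.4 in granulocyte precursor-like, 24.6 in progenitor-like and 3.38 in T and NK cells. Among progenitor-like clusters, interferon target genes were at 1014 CPM in cluster 10 against 276 to 345 in the other 5, where Ifngr1 was at 120.4 against 84.0 to 119. The targets Igtp, Gbp2, Gbp7 and Irgm1 were themselves among the genes leading cluster 10. Its high target level is therefore no result separate from the clustering.

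**Figure D1:**
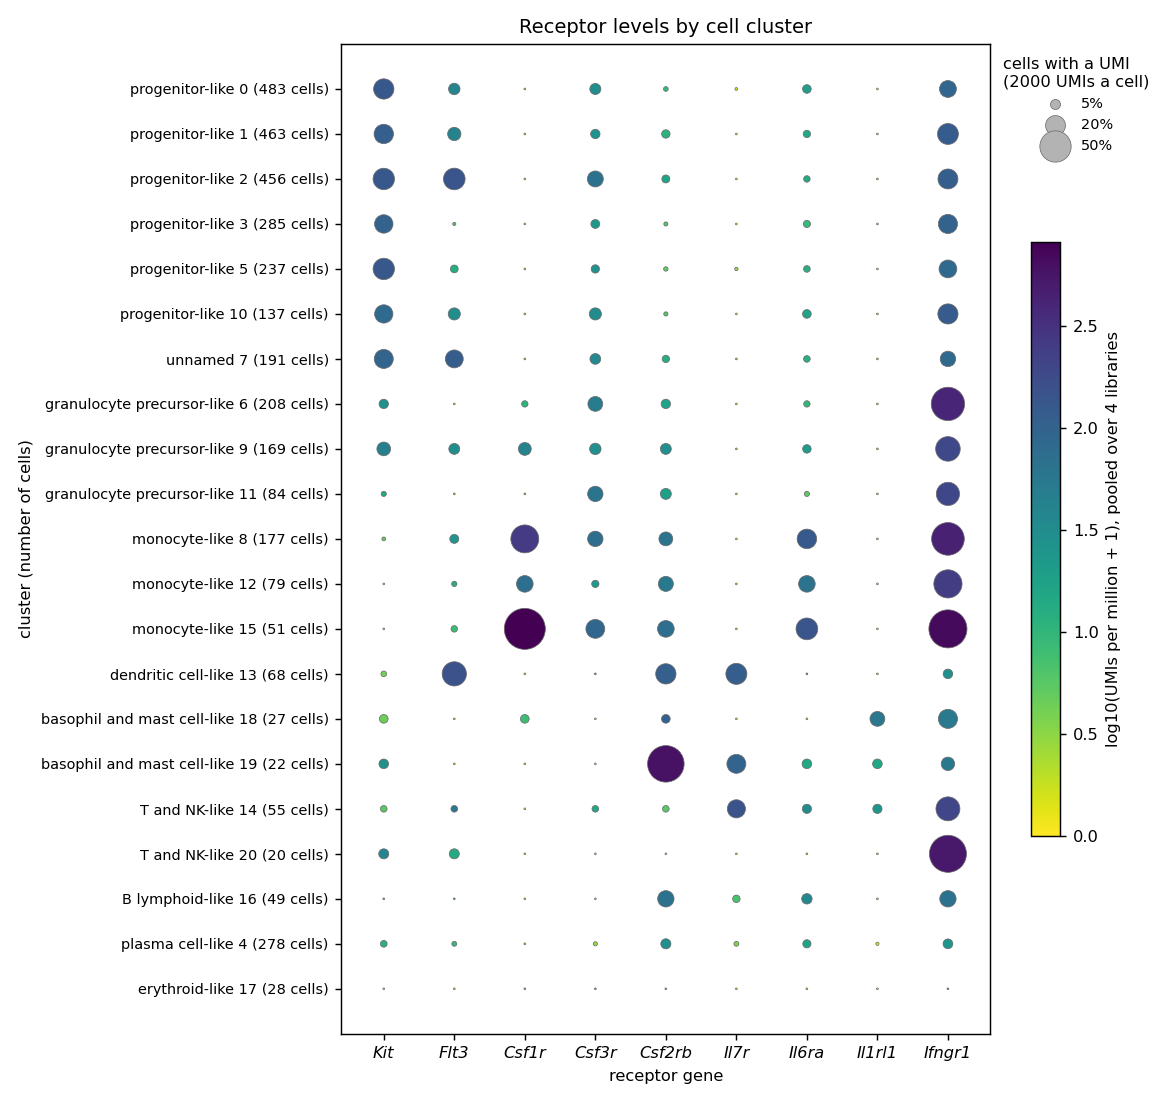
Levels of the 9 receptors (columns) in 21 clusters (rows); the colour is log10 of CPM plus 1 pooled over the 4 libraries, and the area is the share of cells with a UMI at 2000 UMIs a cell. Kit covers the progenitor-like rows and Flt3 fewer of them, Csf1r and Il6ra peak in monocyte-like rows 15 and 8, and Csf2rb peaks in row 19.

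**Figure D2:**
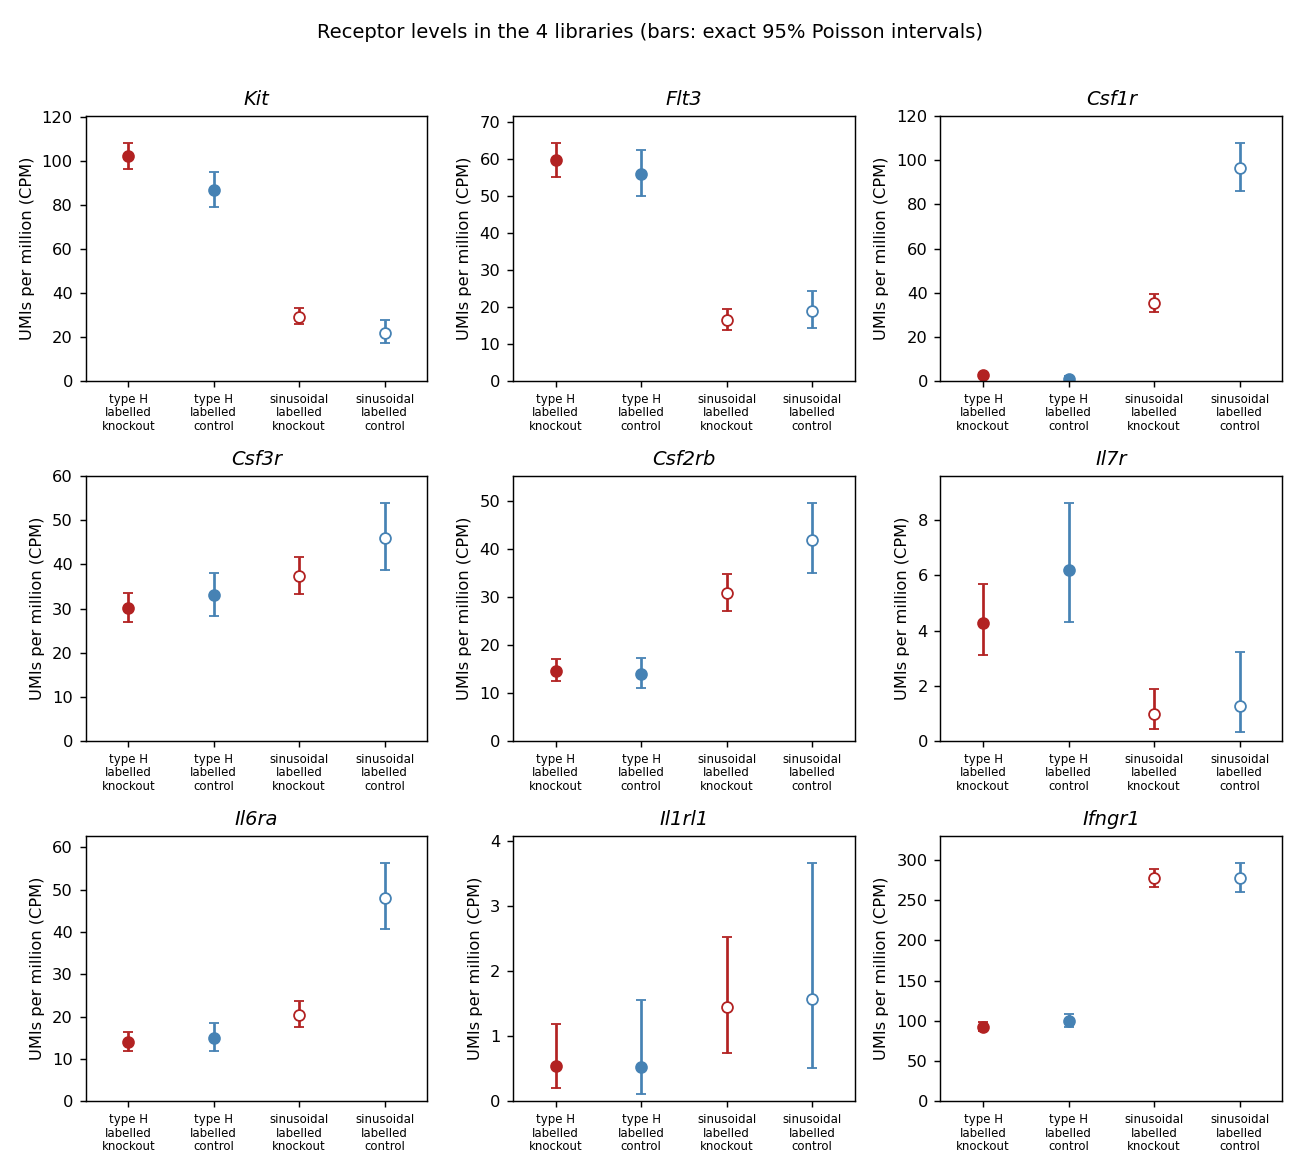
CPM of each receptor in the 4 libraries, labelled knockout in red and labelled control in blue, type H gate filled and sinusoidal gate open; bars are exact 95% Poisson intervals. Kit, Flt3 and Il7r are higher in the type H gate, Csf1r, Csf2rb and Ifngr1 in the sinusoidal gate, and Csf1r and Il6ra are highest in the sinusoidal library labelled control.

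The comparison of the type H with the sinusoidal gate divided the receptors. In the libraries labelled knockout, Kit was 3.49-fold (3.04–4.03), Flt3 3.64-fold (3.03–4.42) and Il7r 4.42-fold (2.07–10.8) higher in the type H gate, and the ratios of Csf1r (0.0750, 0.0493–0.110), Ifngr1 (0.334) and Csf2rb (0.475) were below 1. A gene counted as past the fold at 1.5-fold or more with at least 20 UMIs over both libraries; 3 of 8 members with that many UMIs were higher and 3 lower, where 45.6% of the 12297 genes were higher and 16.3% lower. In the libraries labelled control, 3 of 8 members were higher (Kit 3.95-fold, Flt3 2.97-fold, Il7r 4.94-fold) and 4 lower (Csf1r 0.00919, Il6ra 0.310, Csf2rb 0.331, Ifngr1 0.360), where 40.7% of the 11290 genes were higher and 15.6% lower. Csf3r differed least from 1, with 0.803 and 0.719, and Il6ra at 0.681 just missed the fold in the libraries labelled knockout. The median log2 ratio of all genes was 0.46 and 0.38, so against the other genes the receptors below 1 lie lower still; the members' medians were -0.44 and -0.98. The gates differ in their cell classes, so these values describe the mixtures; fewer cells of a type and less RNA per cell cannot be told apart in a library total.

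Between the labels in the type H gate the receptors differed little. Kit had 102 against 86.9 CPM, a ratio of 1.18 (1.06–1.31), Flt3 had 1.07 (0.931–1.22), Csf3r 0.910, Csf2rb 1.06, Il6ra 0.932, Il7r 0.687 (0.434–1.10) and Ifngr1 0.926 (0.835–1.03). One of the 8 members, Csf1r, was past the fold upwards and none downwards, where 5.33% of 12243 genes were higher and 3.35% lower. Csf1r had 29 UMIs in the library labelled knockout and 5 in that labelled control, a ratio of 2.97 (1.14–9.82); 22 of the 29 and all 5 lay in monocyte-like cells, of which the libraries held 12 and 6. With cells thinned to 2000 UMIs this ratio turned below 1, at -0.27 on the log2 scale, but only 5 and 2 cells then held a Csf1r UMI. The sexes gave different values: in cells with Xist alone Flt3 was at 2.03 (1.39–2.98) and Csf2rb at 22.55 against 5.21 CPM (4.33, 1.68–13.2), both past the fold upwards beside Csf1r, whereas in cells with Y-linked UMIs alone they were at 0.03 and -0.01 on the log2 scale and the 1 member past the fold was Il7r, lower at 0.556. Il7r was also past the fold downwards without plasma cell-like cells (0.650). The members' median log2 ratio was -0.02 and that of all genes -0.01.

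In the progenitor-like cells alone, Kit had 124 (116–132) CPM in the library labelled knockout and 108 (97.5–118) in that labelled control, a ratio of 1.15 (1.02–1.29). The 2 intervals overlap, although the interval of the ratio excludes 1. Flt3 (57.9 against 54.8, 1.06), Csf3r (35.5 against 39.1, 0.908) and Ifngr1 (102 against 113, 0.902, 0.802–1.02) had intervals of the ratio that include 1. None of the 6 members with enough UMIs passed the fold in either direction, where 5.11% of 11439 genes were higher and 3.04% lower. The classes are not made of the same clusters: cluster 0, the largest of the labelled knockout with 420 cells and a median of 3071 UMIs, had 62 cells in the library labelled control, where cluster 2 was the largest. Within cluster 0 Kit had 141 against 82.6, a ratio of 1.70 (1.13–2.67), and in the other 5 progenitor-like clusters its ratio was 1.05 to 1.30 with intervals that include 1; in cluster 7 it was 0.955. Kit was also higher in plasma cell-like cells, with 15.1 against 3.75 (4.02, 1.19–21.1), where it gauges free RNA; the part of free RNA in the Kit difference was not tested. Flt3 stood apart by sex here too: in the 92 and 118 progenitor-like cells with Xist alone it had 109 against 47.9 CPM (2.27, 1.48–3.52), and in the 781 and 319 cells with Y-linked UMIs alone 59.2 against 58.1 (1.018, 0.8205–1.27), while Kit was at 1.245 (0.908–1.70) and 1.28 (1.09–1.51). The difference between the sexes was not tested. In 6 of 6 type H clusters with enough UMIs the Flt3 level was above that of the labelled control, by 1.04- to 2.64-fold, and each interval included 1. Below that minimum, clusters 3 and 5 were above as well (1.27 and 1.665) and plasma cell-like cluster 4 below (0.602). The clusters share the same libraries and are not replicates. Ifngr1 was lower in cluster 7 (74.2 against 114, 0.652, 0.474–0.900) and higher in plasma cell-like cells (30.1 against 13.7, 2.19). Csf2rb was higher in cluster 1, where it had 24 against 3 UMIs (3.61, 1.10–18.7), and in plasma cell-like cells (37.6 against 12.5, 3.01, 1.51–6.66).

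**Figure D3:**
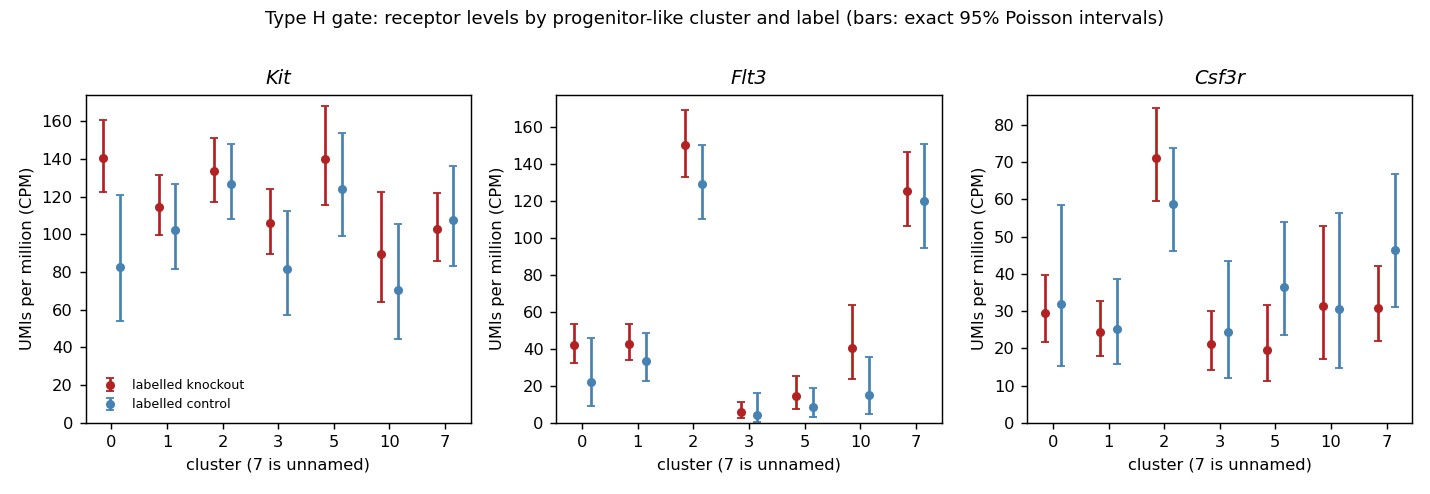
CPM of Kit, Flt3 and Csf3r in the type H gate by progenitor-like cluster and in the unnamed cluster 7, labelled knockout in red to the left of labelled control in blue; bars are exact 95% Poisson intervals. Kit is read in each cluster shown, whereas Flt3 and Csf3r stand out in cluster 2, with Flt3 also in cluster 7.

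In the sinusoidal gate 2 receptors differed past the fold between the labels, both lower in the library labelled knockout. Csf1r had 35.1 against 96.6 CPM, a ratio of 0.364 (0.309–0.428), and Il6ra 20.4 against 48.1, a ratio of 0.424 (0.338–0.531). Kit was higher by less than the fold (1.33, 1.02–1.76), Csf2rb (0.735, 0.594–0.914) and Csf3r (0.814, 0.667–0.998) were lower by less than it, and Flt3 (0.869) and Ifngr1 (0.999, 0.924–1.08) had intervals that include 1. None of 7 members was past the fold upwards and 2 downwards, where 8.43% of 10582 genes were higher and 16.8% lower. In cells with Xist alone, 83 and 62, the Csf1r difference was within the fold, with 45.7 against 60.7 (0.753, 0.490–1.17), and Kit was past it upwards, with 38.4 against 19.2 (2.001, 1.045–4.145); in cells with Y-linked UMIs alone Csf1r had 28.6 against 89.1 (0.321). The makeup of the libraries moved with these values: monocyte-like cells were 21.7% of the cells labelled knockout and 48.2% of those labelled control, and they gave 55.3% and 89.9% of the Csf1r UMIs of their libraries.

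Within granulocyte precursor-like cells of that gate most receptors were close between the labels. Kit had 34.0 against 29.4 CPM (1.16), Csf1r 20.7 against 18.5 (1.12), Csf3r 42.6 against 44.0 (0.967), Csf2rb 20.9 against 21.1 (0.991) and Il6ra 12.8 against 12.1 (1.06), and each pair of intervals overlapped. The class mixes its clusters in unequal parts. By cluster, Csf1r was at 0.563 (0.269–1.22) in cluster 6 and 0.922 (0.534–1.71) in cluster 9, both below its class value. Kit was at 1.22 (0.752–2.06) in cluster 6 and 0.671 (0.426–1.10) in cluster 9. Ifngr1 was higher by less than the fold, with 305 (291–319) against 258 (233–284), a ratio of 1.18 (1.06–1.32). It was higher in each of the 3 clusters, with 435 against 352 in cluster 6 (1.24, 1.09–1.40), 195 against 139 in cluster 9 (1.41, 1.05–1.92) and 242 against 107 in cluster 11 (2.26, 1.54–3.42). Flt3 had 14.0 against 5.74 from 85 and 9 UMIs, a ratio of 2.43 (1.22–5.50), and was the 1 member of 7 past the fold upwards, with none downwards; 9.8% of 9539 genes were higher and 9.06% lower. All of these Flt3 UMIs came from cluster 9, which held 148 cells labelled knockout and 20 labelled control, and within it the ratio was 1.26 (0.631–2.84). Without cluster 9 no Flt3 UMI was left in either library, and the member past the fold was Csf1r, lower at 6.52 against 11.6 CPM (0.562, 0.275–1.19). In the cells with only Xist UMIs, 53 and 24, Kit (2.07), Flt3 (4.28) and Csf1r (1.645) were higher past the fold.

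Monocyte-like cells of the sinusoidal gate gave lower values in the library labelled knockout for 5 of the 6 receptors with enough UMIs, and none was higher past the fold, where 18.3% of 7296 genes were higher and 18.4% lower. Csf1r had 119 (101–139) against 295 (262–332), a ratio of 0.402, Csf3r 29.5 against 73.8 (0.400, 0.264–0.599), Il6ra 64.2 against 139 (0.462, 0.348–0.610), Flt3 11.1 against 23.5 (0.470) and Ifngr1 292 against 440 (0.664, 0.577–0.765). Csf2rb, with 59.8 against 56.7, was the exception (1.05). Different clusters held most of the class: cluster 12 had 61 cells labelled knockout and 14 labelled control, cluster 8 had 54 and 114, and cluster 15 had 5 and 41. Without cluster 12, 2 of the 5 remained past the fold, Il6ra with 85.1 against 148 (0.576, 0.370–0.872) and Flt3 with 11.7 against 28.25 (0.4155, 0.104–1.22). Csf1r was then at 0.799 (0.623–1.02), Csf3r at 0.811 and Ifngr1 at 0.981 (0.809–1.19). In cluster 8 alone Csf1r was at 249 against 252 (0.989, 0.750–1.30) and Ifngr1 at 446 against 436 (1.02), while Il6ra stayed lower at 80.1 against 153 (0.524, 0.327–0.812) and Csf2rb was at 83.1 against 53.4 (1.56, 0.909–2.64).

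**Figure D4:**
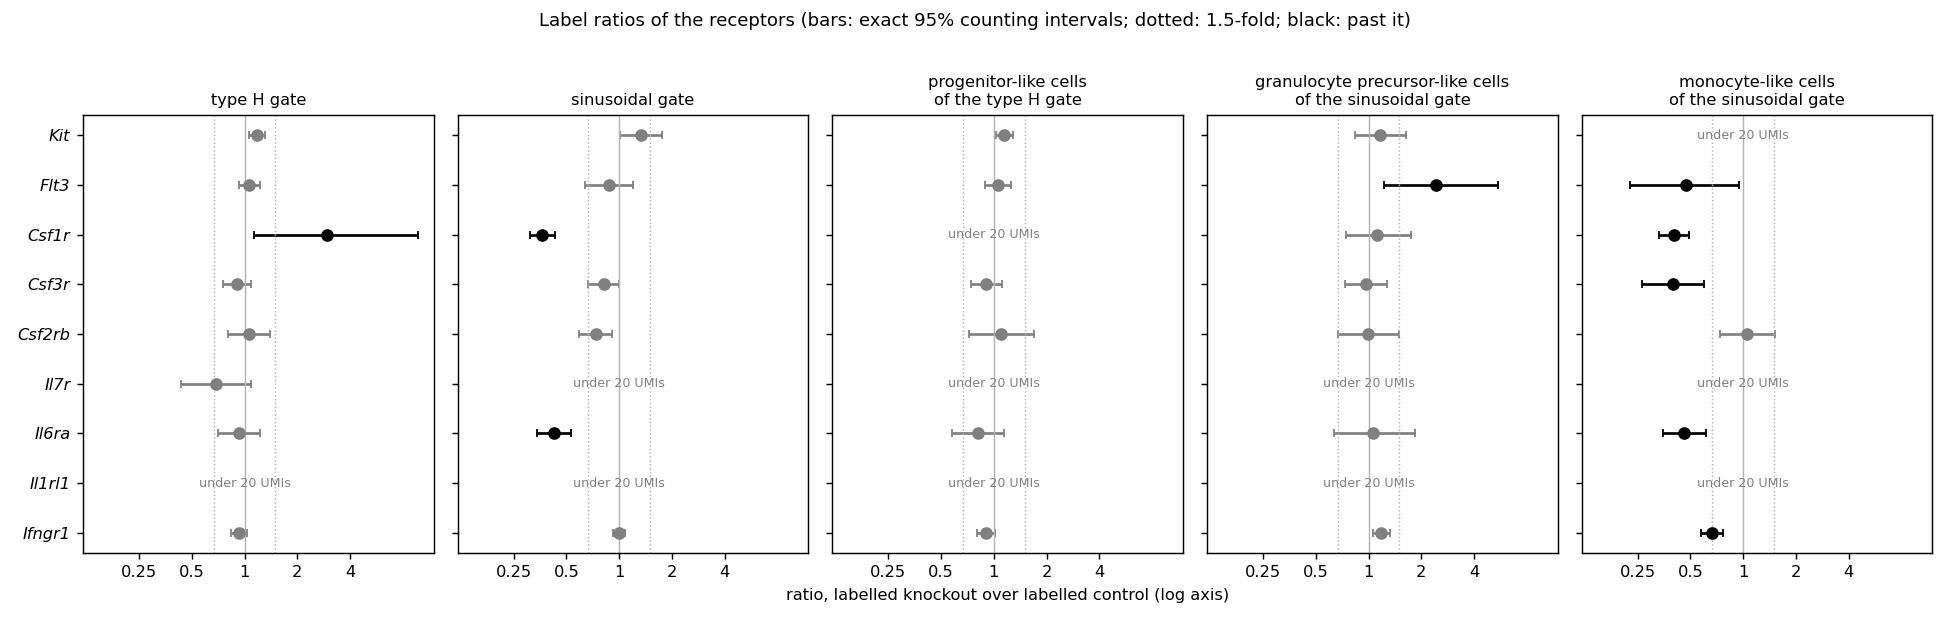
Ratio of labelled knockout over labelled control for each receptor in 5 comparisons, on a log axis; bars are exact 95% counting intervals, dotted lines mark 1.5-fold and black points lie past it. Progenitor-like cells have no black point, and monocyte-like cells have 5, all to the left.

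Co-detection asks whether cells of the type H gate that carry a first receptor also carry a second one more often than cells without it. Cells were thinned to 2000 UMIs, which left 1769 cells labelled knockout and 790 labelled control, and 36 pairs were formed, of which 21 and 19 were seen together in at least 1 cell. Kit and Flt3 were seen together in 35 cells labelled knockout and 14 labelled control. In the library labelled knockout Flt3 was found in 10.97% (7.76–14.9) of cells with Kit and 8.90% (7.48–10.5) of cells without it, and in that labelled control in 11.97% (6.70–19.3) and 8.92% (6.87–11.3). The intervals overlap in both libraries, so a link of Kit and Flt3 was not detectable at this depth. Csf3r was found in 12.2% (7.61–18.2) of cells with Flt3 and 5.23% (4.20–6.44) of cells without it in the library labelled knockout, which do not overlap, and in 6.76% (2.23–15.1) and 5.17% (3.66–7.05) in that labelled control, which do. Within progenitor-like cells the shares were 13.04% and 6.09% (labelled knockout) and 9.26% and 6.19% (labelled control). Il6ra and Ifngr1 lay apart in the other direction in progenitor-like cells of the library labelled knockout: 0 of 36 cells with Il6ra had Ifngr1, with an exact interval up to 9.74%, against 17.9% of cells without it; in the library labelled control 2 of 16 cells with Il6ra had it. Csf2rb and Il6ra were the other pair without overlap in the library labelled knockout, with Il6ra in 12.96% (5.37–24.9) of cells with Csf2rb and 2.62% (1.92–3.495) of cells without it, from 7 cells with both; in progenitor-like cells this was 6.90% against 2.51%, which overlap, and in the library labelled control 0 of 22 cells with Csf2rb had Il6ra, with an exact interval up to 15.4%. For Kit and Ifngr1 the intervals overlapped, with Ifngr1 in 15.1% of cells with Kit and 16.4% of cells without it (labelled knockout) and in 21.4% and 18.4% (labelled control). Kit was never seen with Csf1r, Il7r or Il1rl1 in a cell of either library at this depth, but few cells held these receptors. Csf1r was in 5 cells labelled knockout and 2 labelled control, Il7r in 15 and 11, and Il1rl1 in 2 and 1. Among all cells of either library, no pair was seen together less often without overlap of the intervals. The missing pairs with Kit are therefore not read as receptors that exclude each other.

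**Figure D5:**
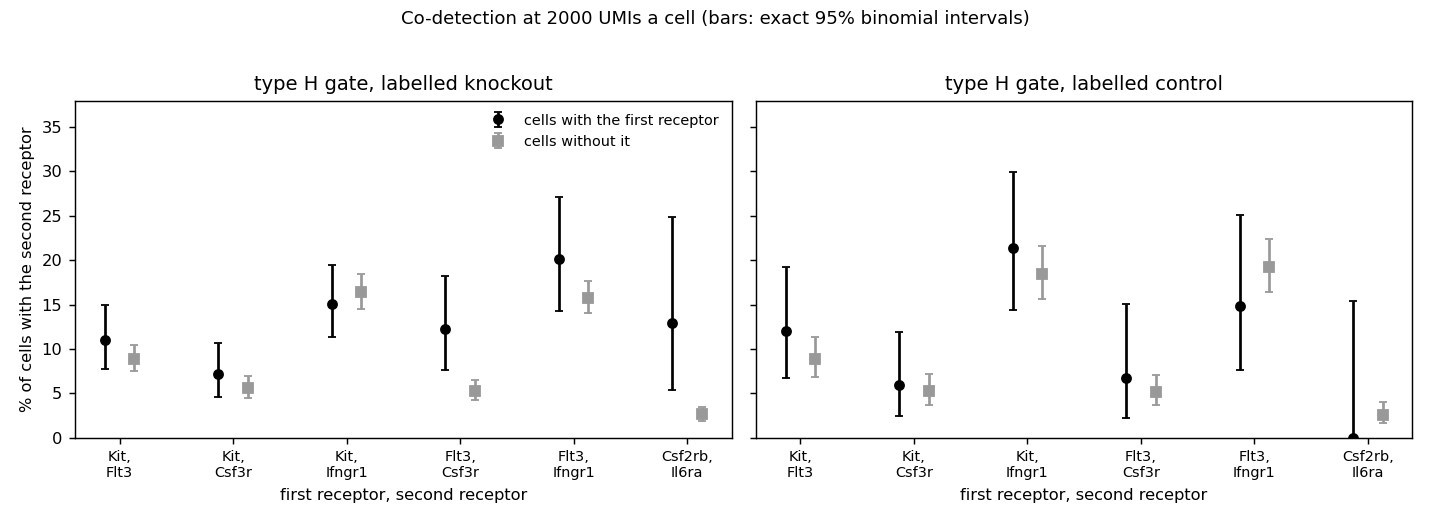
Share of type H gate cells with the second receptor of a pair, among cells with the first receptor (black circles) and without it (grey squares), in each library at 2000 UMIs a cell; bars are exact 95% binomial intervals. Csf3r with Flt3 and Il6ra with Csf2rb lie apart in the library labelled knockout, and the intervals overlap in that labelled control.

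The progenitor-like cells with a Flt3 UMI also differed in other genes. In 138 such cells of the library labelled knockout, against 1248 without, a list of 9 measured lymphoid-primed genes summed to 152 against 93.0 CPM (1.64, 1.15–2.28), and in 54 against 533 cells of the library labelled control to 167 against 69.4 (2.40, 1.35–4.06). Cd34, a surface protein of progenitors, had 380.4 against 146 (2.60) and 398 against 158 (2.51), and Spi1, the gene of the factor PU.1, had ratios of 1.66 and 1.91. Mllt3, a regulator of stem cell maintenance, was lower with Flt3 (0.547 and 0.534), as was Mycn (0.353 and 0.419). The list of 10 stem cell genes as a whole was at 0.984 and 1.05, with members on either side of 1. A list of myeloid-primed genes was at 1.38 and 1.37, carried mostly by Prtn3. For Kit the ratios were on both sides of 1, with the stem cell list at 0.924 and 0.925 and the lymphoid-primed list at 0.792 and 0.665 in cells with a Kit UMI over cells without. The list of dividing-cell genes was at 0.960 (0.599–1.49) in the library labelled knockout and at 2.77 (1.352–5.505) in that labelled control, from 15 UMIs in cells with Kit and 24 in cells without.

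The other genes of these pathways were followed through lists, counted past the same fold. Of 18 kinases and STATs, which relay the signal, none was past the fold between the labels in the type H gate, nor were any in its progenitor-like cells. Of 25 other receptors and shared chains in the type H gate, 2 were higher and 2 lower, where 5.33% of all genes were higher and 3.35% lower; with so few genes past the fold in each list, the single genes below are values and say nothing of their list. Csf2ra, the GM-CSF partner of Csf2rb, had 41.7 against 23.6 CPM (1.77, 1.46–2.16) and 45.0 against 27.5 in progenitor-like cells (1.64, 1.31–2.05). Il5ra, the interleukin-5 partner, had 40 against 4 UMIs; over the 4 libraries 38 of its UMIs lay in plasma cell-like cells and 5 in progenitor-like cells. Lifr and Csf2rb2, at 0.614 and 0.636, had intervals that include 1. Of 5 ligands 1 was lower, Il6 with 1 against 26 UMIs, and of 16 targets 1 was lower, Osm with 4.99 against 21.1 CPM; 10 of the 26 Il6 UMIs and 68 of the 119 Osm UMIs of the library labelled control lay in the 4 cells of cluster 19, which the library labelled knockout lacked. Of 16 inhibitors 1 was lower, Sh2b2.

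In the sinusoidal gate the median log2 ratio of each pathway list was below 0, against 0.01 for all genes. It was -0.80 for ligands, -0.48 for receptors, -0.50 for kinases and STATs, -0.53 for inhibitors and -1.09 for targets. Low medians were not particular to the pathway lists. The lymphoid-primed, stem cell and megakaryocyte-primed lists had -0.84, -0.41 and -0.39. The myeloid-primed and dividing-cell lists had 0.45 and 0.65. Of all genes, 16.8% were lower past the fold and 8.43% higher. Lower past the fold were 9 of 21 receptors (1 higher), 8 of 18 kinases and STATs, 6 of 14 inhibitors, 10 of 14 targets (1 higher) and 2 of 4 ligands. Il2rb, a chain for interleukin-2 and interleukin-15, had 2 against 45 UMIs, and the interferon target Cxcl10 had 2.65 against 13.5 CPM (0.196). Within granulocyte precursor-like cells, where 9.06% of all genes were lower and 9.8% higher, the counts were small in both directions, with 1 higher and 3 lower of 16 receptors and 2 higher and 2 lower of 11 targets. Within monocyte-like cells, where 18.4% of all genes were lower and 18.3% higher, 7 of 15 receptors, 9 of 16 kinases and STATs and 9 of 13 targets were lower, with 1, 1 and 2 higher, while all 10 dividing-cell genes were higher, which moves with the cycling cluster 12; its part in the receptor differences was not tested beyond the values without it.

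Between the gates the targets of cytokine signalling, and the kinases and STATs, were past the fold upwards in the type H gate in larger shares than all genes under both labels, the receptors and inhibitors in a larger share in the libraries labelled knockout and a smaller one in those labelled control. In the libraries labelled knockout, where 45.6% of all genes were higher and 16.3% lower, 13 of 25 receptors, 12 of 18 kinases and STATs, 10 of 16 inhibitors and 14 of 16 targets were higher, and 3, 1, 1 and 1 lower. The feedback inhibitors Socs2 (44.4 against 0.603 CPM) and Cish (35.7 against 0.483) stood far higher in the type H gate in the libraries labelled knockout; by class they had 52.2 and 41.7 in progenitor-like cells. In the libraries labelled control, where 40.7% of all genes were higher and 15.6% lower, 7 of 22 receptors were higher and 6 lower, 9 of 18 kinases and STATs higher and 3 lower, 5 of 16 inhibitors higher and 2 lower, and 12 of 16 targets higher and 1 lower. Csf2ra was lower in the type H gate under both labels, with 23.6 against 136 CPM (labelled control) and 41.7 against 87.9 (labelled knockout).

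Over 21 clusters the genes whose levels went most like a member's, by Pearson's r of log2 (CPM + 10), are given as a description; the points share libraries and differ in depth. They were Ociad2, Myc and Rab38 for Kit (0.951, 0.936, 0.929), Arhgap32, Paqr5 and Dntt for Flt3 (0.808, 0.776, 0.771), and Ptpro, Hpgd and Pid1 for Csf1r (0.963, 0.956, 0.950). For Csf3r they were Tnfsf13os, Tnfrsf1a and Ltbr (0.894, 0.893, 0.846), for Csf2rb Litaf, Cyp4f18 and Mknk1 (0.892, 0.888, 0.839), and for Il6ra S100a4, Rara and Ctage5 (0.921, 0.916, 0.878). Il7r had Xlr4a, Ccr9 and Kdm4a (0.765, 0.752, 0.746), Il1rl1 had Fam204a, Rnase12 and Cpa3 (0.847, 0.835, 0.831) and Ifngr1 had Eno1, Efhd2 and Pnpt1 (0.876, 0.828, 0.824). Among the members themselves Csf1r and Il6ra were the most alike (0.780), and Kit and Csf1r the least (-0.466).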

How the data were processed

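The deposited files hold counts: UMIs per gene and cell barcode for 4 libraries made with 10x Genomics Chromium and sequenced on a NextSeq 500, per the labels' protocols. Cell Ranger, Seurat and mm10 are named in the submitters' processing notes; their version numbers: not given in the sources used here. A barcode needed 200 genes and less than 10% of mitochondrial UMIs, which left 3567 of 3641 barcodes (total UMIs 11065352, 5703108, 8338220 and 3234772); 0 to 2 barcodes were shared by library pairs, none with equal totals. Doublets were not removed; Scrublet marked 3, 1, 6 and 5 cells. Clusters were made with scanpy 1.11.5 (2000 variable genes without the 9 members, 30 components, 15 neighbours, Leiden resolution 1) and called X-like from marker lists that hold no member. CPM (the UMIs of a gene scaled to a common total) were computed from the UMIs of the cells kept, with exact Poisson intervals. Shares had Clopper-Pearson intervals, and ratios had intervals conditional on the total (scipy 1.17.1). The code for ratios was run on simulated Poisson counts, the model these intervals assume. That run cannot show how the intervals hold where UMIs of a gene gather in few cells. The log2 ratio added 0.5 UMIs. Named genes were the members, the 3 genes most like each member by cluster, up to 4 genes of each list past the fold with the largest log2 ratio, Id1, Id3 and Csf2rb2; genes of partner chains and panels outside that rule were chosen after their values were seen. The members and lists were chosen with earlier results of these data known. No test was made, since each group is 1 library.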

Additional observations from a re-analysis of the deposited data

Results flagged for a closer look

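Flt3 differed in direction between cell classes of the sinusoidal gate. Labelled knockout over labelled control it was at 2.43 in granulocyte precursor-like cells and at 0.470 in monocyte-like cells; the difference between the classes was not tested, since each label is 1 library. All Flt3 UMIs of the granulocyte precursor-like cells lay in cluster 9, with 148 against 20 cells, where the ratio was 1.26 (0.631–2.84). With members kept among the variable genes, a Prg2-led cluster of 127 and 13 cells was unnamed and left the class. The log2 ratio of the cells still in the class was -0.88, which is not a value for the same cells.

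Csf1r differed in direction between the gates. Labelled knockout over labelled control it was at 2.97 in the type H gate, from 29 against 5 UMIs, and at 0.364 in the sinusoidal gate, from 291 against 307 UMIs; this difference was not tested either. In the type H gate 22 and 5 of these UMIs lay in 12 and 6 monocyte-like cells. With cells thinned to 2000 UMIs the log2 ratio was -0.27, but only 5 and 2 cells then held a Csf1r UMI, too few to tell a direction.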

How the results depend on the processing

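The alternatives for clusters 0, 8, 9 and 12 were chosen after seeing the data. Of 479 member values recomputed, 409 stayed within the bounds set for a change, 66 moved and 4 turned direction. On the log2 scale these 4 were Csf1r in the type H gate thinned to 2000 UMIs (-0.27), Flt3 in granulocyte precursor-like cells with members kept among the variable genes (-0.88) or without cluster 9 (-1.48, from the added 0.5 UMIs alone), and Ifngr1 in cluster 8 alone of the monocyte-like cells (0.04). The Csf1r value rested on 5 and 2 cells with a UMI. With members kept, a Prg2-led cluster of 127 and 13 cells was unnamed and left the class. The count of members past the fold between the labels, 1 in the type H gate, was 0 with thinned cells, 3 in cells with only Xist UMIs, 2 under the strict filter and 2 without plasma cell-like cells. In progenitor-like cells 0 became 2, and in granulocyte precursor-like cells 1 became 3, in cells with only Xist UMIs; the monocyte-like 5 became 3 with thinned cells, 2 in cells with only Xist UMIs, 2 without cluster 12 and 3 in cluster 8 alone (2 lower, and Csf2rb higher). In granulocyte precursor-like cells the 1 member past the fold was lower instead of higher with thinned cells (Csf2rb), and with members kept, under the strict filter and without cluster 9 (Csf1r); members kept and the strict filter left 227 and 244 of 355 labelled knockout cells in the class. The 2 pairs of receptors without overlap became 0 at 1000 UMIs a cell and 18 unthinned, where depth is shared by both receptors. The sinusoidal and gate totals did not change by more than 1.5 times, but in sinusoidal cells with only Xist UMIs the 2 were Kit, higher, and Il6ra, lower, in place of 2 lower, and with thinned cells 1 higher and 2 lower. The class with the highest level of each of the 9 members was as before at resolution 2. Cells with only Xist UMIs number 62 to 170 a library. No paired analysis was possible because each group is 1 library and no test was made. Members under 20 UMIs, such as Il1rl1, are limited by depth, and no cause of a change was tested.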
